A study of Mus musculus with 12 samples.

Results

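The 10 genes described here encode the proteins that coat lipid droplets and the enzymes and cofactors that build or break down the triglyceride inside them: the perilipins Plin2, Plin3, Plin4 and Plin5, the lipases Pnpla2, Lipe and Mgll, the lipase cofactors Abhd5 and G0s2, and the triglyceride-forming enzyme Dgat2. They were taken by gene symbol from the platform annotation, 10 of 19505 named genes, and each had 1 probe set, so no choice between probe sets was needed. All 10 were bright enough to be tested, among 13653 genes tested in all. Their levels were compared across 12 mouse myocardium samples hybridised to single-colour Affymetrix arrays, 4 mice in each of 3 groups. The AngIV group was made diabetic with streptozotocin, a toxin of the insulin-producing beta cells given over 5 days, and then received a high dose of the peptide angiotensin IV between weeks 8 and 24, at 2.88 mg/kg/day. The DM group had streptozotocin diabetes without the peptide, and diabetic mice of both groups entered the study at a fasting blood glucose of at least 16.7 mM. The NC group was injected with vehicle over 5 days. The labels give 6 months for the tissue of every group, and neither strain nor sex is given in the sources used here. Streptozotocin models diabetes through loss of insulin, not through obesity or insulin resistance.

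Heart muscle can store fatty acid that it does not burn at once as triglyceride in small droplets. Stored triglyceride is released in steps: adipose triglyceride lipase (ATGL, from Pnpla2) removes the first fatty acid, hormone-sensitive lipase (from Lipe) acts on the resulting diglyceride, and monoglyceride lipase (from Mgll) removes the last one. ABHD5 activates ATGL and G0S2 inhibits it. Perilipins cover the droplet surface and govern access of the lipases, with perilipin 5 being the member typical of oxidative tissues such as heart. Insulin normally restrains lipolysis, and several of these genes are known targets of PPAR nuclear receptors, which fatty acids activate, and of FoxO factors, which insulin signalling inactivates.

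Promoter sequence is shown for Pnpla2 and Plin4, which were called in a comparison, and for Plin2, Plin5 and Lipe, whose deviations from the group means had the highest correlations with those of Pnpla2 beside Plin4. Dgat2 was also called and is named only, as it was not among the matched entries. Lipe and Plin5 each have a pair of start sites in the table, and both windows are shown. Each run holds the 250 bases before a transcription start site, taken from RefSeq on build GRCm38.p6 and written 5′ to 3′ on the strand of the gene. Capitals mark matches on either strand to 1 of 5 motifs: the hexamer AGGTCA that PPAR and other nuclear receptors bind, the forkhead motif GTAAACA that FoxO factors bind, the E-box CACGTG, the glucocorticoid receptor hexamer AGAACA and TATAAA. No match overlapped another. The Pnpla2 window lies at chr7:141454938-141455187 on the plus strand, Plin4 at chr17:56109783-56110032, Plin5 at chr17:56117549-56117798 (start site a) and chr17:56117299-56117548 (start site b), Plin2 at chr4:86670060-86670309 and Lipe at chr7:25390113-25390362 (start site a) and chr7:25395988-25396237 (start site b), all but Pnpla2 on the minus strand.
Pnpla2: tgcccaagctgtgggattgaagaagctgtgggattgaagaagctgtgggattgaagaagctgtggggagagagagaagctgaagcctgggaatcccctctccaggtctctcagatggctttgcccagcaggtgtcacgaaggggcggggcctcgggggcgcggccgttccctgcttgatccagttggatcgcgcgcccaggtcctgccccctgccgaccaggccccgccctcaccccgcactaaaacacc
Plin4: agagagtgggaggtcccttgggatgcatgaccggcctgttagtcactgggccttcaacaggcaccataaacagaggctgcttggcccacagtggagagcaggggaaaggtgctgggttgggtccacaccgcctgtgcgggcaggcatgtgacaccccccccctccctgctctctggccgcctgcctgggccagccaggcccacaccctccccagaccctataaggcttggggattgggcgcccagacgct
Plin5 start site a: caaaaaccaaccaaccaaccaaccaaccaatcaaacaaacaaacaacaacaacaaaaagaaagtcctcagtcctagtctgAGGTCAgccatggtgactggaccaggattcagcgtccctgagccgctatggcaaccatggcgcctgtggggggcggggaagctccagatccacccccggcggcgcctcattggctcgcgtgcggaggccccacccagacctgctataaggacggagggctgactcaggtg
Plin5 start site b: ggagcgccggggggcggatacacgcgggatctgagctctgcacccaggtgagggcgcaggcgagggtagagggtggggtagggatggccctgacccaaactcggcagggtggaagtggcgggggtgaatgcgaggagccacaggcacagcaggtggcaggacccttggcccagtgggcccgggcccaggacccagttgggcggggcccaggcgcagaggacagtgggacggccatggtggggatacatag
Plin2: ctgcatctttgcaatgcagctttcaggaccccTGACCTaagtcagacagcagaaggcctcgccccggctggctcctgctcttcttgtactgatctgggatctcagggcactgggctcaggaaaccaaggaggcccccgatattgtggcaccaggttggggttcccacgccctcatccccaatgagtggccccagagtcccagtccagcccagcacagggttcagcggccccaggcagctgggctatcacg
Lipe start site a: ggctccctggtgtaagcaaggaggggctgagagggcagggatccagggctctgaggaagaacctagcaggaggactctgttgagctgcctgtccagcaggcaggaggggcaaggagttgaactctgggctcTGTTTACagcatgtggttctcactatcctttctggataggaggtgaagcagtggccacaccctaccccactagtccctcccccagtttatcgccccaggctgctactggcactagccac
Lipe start site b: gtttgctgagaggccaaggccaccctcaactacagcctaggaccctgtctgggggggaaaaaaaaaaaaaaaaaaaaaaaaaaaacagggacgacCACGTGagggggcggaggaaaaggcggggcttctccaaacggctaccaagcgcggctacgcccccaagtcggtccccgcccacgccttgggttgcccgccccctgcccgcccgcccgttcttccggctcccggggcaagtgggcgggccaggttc
The nuclear receptor hexamer was found 170 bases before start site a of Plin5 and 218 bases before that of Plin2. The forkhead motif was found 119 bases before start site a of Lipe and the E-box 155 bases before its start site b. The windows of Pnpla2, Plin4 and start site b of Plin5 held none of the 5 motifs. Over the 12 promoters listed for 9 of the genes, 3 held the hexamer AGGTCA (Plin2, Plin5 and Abhd5) and 2 the forkhead motif (Lipe and Mgll), against 14.0% and 3.17% of all 32851 promoters. The E-box was in 2 of the 12 (Lipe and Mgll), against 6.02% of all. The glucocorticoid receptor hexamer was in 1 (Mgll), against 16.1%, and TATAAA was in 0, against 12.4%.

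The tissue carried the signals of heart muscle, and most fat cell markers stayed near background. The 8 cardiomyocyte markers averaged a log2 signal of 11.38 ± 0.03 in AngIV, 11.33 ± 0.04 in DM and 11.39 ± 0.07 in NC (SD, n = 4). Of 12 adipocyte markers on the array, 10 did not exceed the background level in any group, set at the signal that 95% of negative control probe sets stay below, which was 5.52 over all arrays. Among these were Adipoq, the adiponectin gene, and the fat cell droplet proteins Plin1 and Cidec. The 2 markers above it were Fabp4, at mean signals of 11.21 in AngIV, 11.24 in DM and 10.81 in NC and called higher in AngIV than in NC, and Cidea, at 6.97, 7.30 and 6.73 in the same groups. Car3, not above the level as a group mean, read 7.07 and 6.13 on NC replicates 3 and 4. The mean of the adipocyte list ranged from 4.11 to 4.44 in AngIV, 4.36 to 4.48 in DM and 4.10 to 4.95 in NC. Macrophages also store droplets, and their 11 markers ranged in mean from 5.64 to 6.46 in AngIV, 5.55 to 6.66 in DM and 5.53 to 5.80 in NC, with 0 called in any comparison and 11 of 11 positive in DM against NC and in AngIV against NC. Of these 11, 4 did not exceed the background level in any group (Adgre1, Fcgr1, Mpeg1 and Mertk). Before adjustment 3 of the 11 had a p under 0.05 in DM against NC, 5 in AngIV against NC and 6 for both diabetic groups against NC, where 10.7%, 18.6% and 16.4% of all genes did. Atrial tissue was unevenly present: Myl7, the atrial myosin light chain, lay above the background level on 0 AngIV arrays, 3 DM arrays (replicates 1, 2 and 4) and 2 NC arrays (replicates 1 and 3). In bulk tissue, fewer cells of a type and less RNA per cell cannot be told apart.

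**Figure D1:**
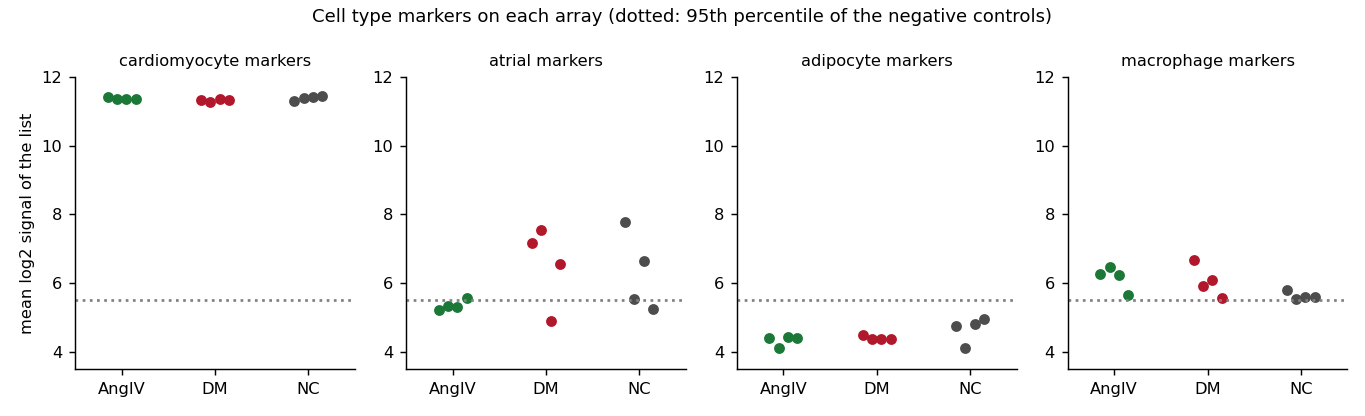
Mean log2 signal of 4 cell type marker lists on each array (1 point per array, replicates 1 to 4 from left to right within a group), with the background level as a dotted line. Cardiomyocyte markers lie near 11.4 in all groups, adipocyte markers lie below the dotted line on every array, and atrial markers vary widely within DM and NC.

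Pnpla2, Plin4 and Dgat2 rose in AngIV against NC, and none of the 10 genes was called lower. These 3 of 10 were called by limma (adjusted p under 0.05 over all 13653 genes), where 2.15% of all genes were called and 1.52% were called higher. The fold was 1.68 for Pnpla2 (95% interval 1.39 to 2.03), 1.74 for Plin4 (1.37 to 2.20) and 1.49 for Dgat2 (1.27 to 1.73). Before adjustment 6 of the 10 had a p under 0.05, against 18.6% of all genes, and 4 had groups that did not overlap, against 12.8%. The median log2 change was 0.50 over the 10 genes and 0.0033 over all genes. The 10 genes were chosen with earlier results of these data known. Shares and medians set against all genes, here and below, therefore describe them and test nothing.

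In DM against NC limma called 0 of the 10, where 0.022% of all genes were called, and adjusted p-values ran from 0.106 for Pnpla2 to 0.959 for Abhd5. Without adjustment 6 had a p under 0.05, against 10.7% of all genes: Pnpla2, Lipe, Plin2, Plin4 and Plin5 with a positive change and G0s2 with a negative one. The groups did not overlap for 3, Pnpla2, Lipe and Plin5, against 5.3% of all genes. The exact permutation test, two-sided, reached its smallest possible p of 0.0286 for these 3 and called 0 genes after adjustment over all genes. The median log2 change was 0.31, against -0.0016 over all genes. In AngIV against DM limma called 0 of the 10 and 0% of all genes, 3 had an unadjusted p under 0.05 (Dgat2, Plin3 and Plin4), against 8.78%, and 1 had groups that did not overlap (Dgat2), against 5.76%. Taking both diabetic groups together against NC, Pnpla2 and Plin4 rose, 2 of 10 called where 1.32% of all genes were called (0.908% higher), 1 had groups that did not overlap (Pnpla2), against 2.53%, and 7 had an unadjusted p under 0.05, against 16.4%. These comparisons share arrays, so their results are not independent of each other.

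**Figure D2:**
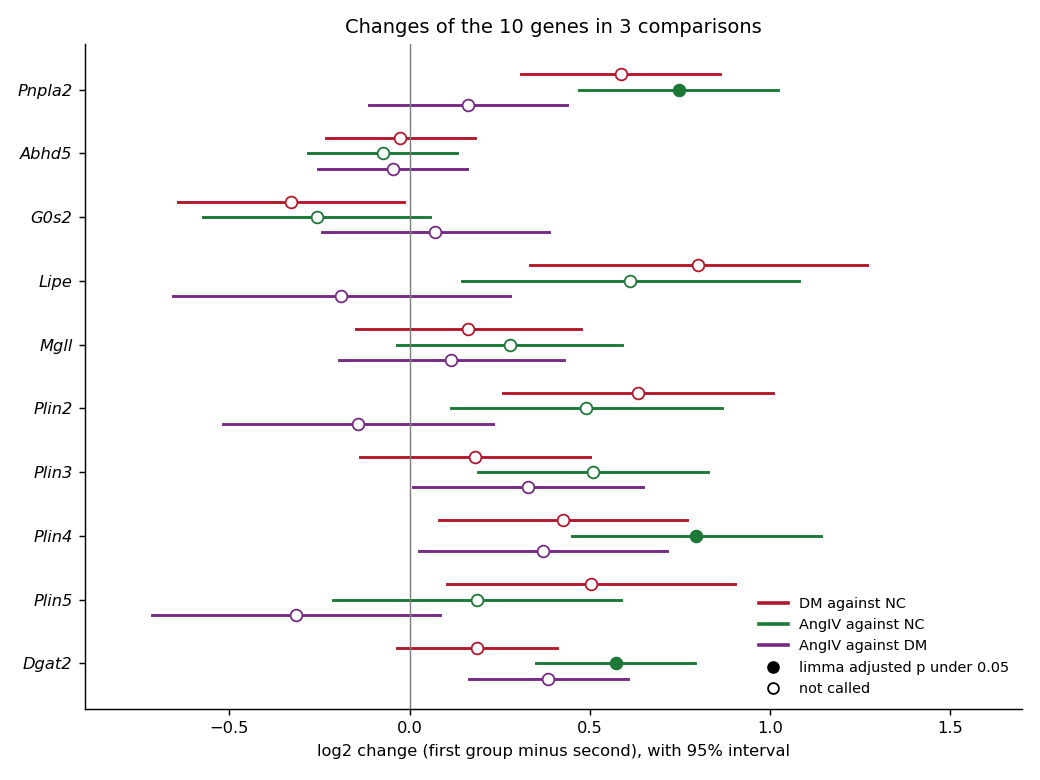
Log2 change of each of the 10 genes (first group minus second) with its 95% interval from limma, in DM against NC, AngIV against NC and AngIV against DM. Filled points are called; the 3 filled points are Pnpla2, Plin4 and Dgat2 in AngIV against NC, and the intervals of Abhd5 span 0 in all 3 comparisons.

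Pnpla2, the gene of the lipase that starts triglyceride breakdown, separated both diabetic groups from NC on every array. Its log2 signals were 10.20, 10.61, 10.51 and 10.63 in AngIV and 10.61, 10.43, 10.18 and 10.08 in DM, against 9.64, 9.85, 9.74 and 9.74 in NC. The lowest diabetic array stood above the highest NC array, and AngIV and DM overlapped. The log2 change was 0.75 ± 0.13 (SE) in AngIV against NC (limma adjusted p = 0.0097), 0.58 ± 0.13 in DM against NC (limma adjusted p = 0.106) and 0.67 ± 0.11 for both groups against NC (limma adjusted p = 0.0134). AngIV against DM gave 0.16, with an interval from -0.11 to 0.44. The exact permutation p for both diabetic groups against NC was 0.00202, the smallest that 495 arrangements allow. After adjustment over all genes the permutation p was 0.128 there and 0.224 in AngIV against NC, so Pnpla2 was not called by that test. It called 0 of all genes in either comparison. Leaving out each of the 12 arrays in turn kept Pnpla2 called in AngIV against NC and for both groups against NC. Both calls ended with the macrophage marker mean as a covariate and without the 5 arrays with Myl7 above background (limma adjusted p = 0.132 and 0.083 in AngIV against NC).

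Neither cofactor of that lipase was called in any comparison. Abhd5, its activator, read 8.49, 8.37, 8.37 and 8.45 in AngIV and 8.46, 8.39, 8.41 and 8.61 in DM, against 8.54, 8.65, 8.32 and 8.47 in NC. It spanned the narrowest range of the 10 genes, 0.33 on the log2 scale over all arrays, and its change in DM against NC was -0.03 with an interval from -0.23 to 0.18. In AngIV against NC it was -0.07, with an interval from -0.28 to 0.13. G0s2, the inhibitor, read 7.04, 6.84, 6.72 and 6.54 in AngIV and 6.80, 6.65, 6.90 and 6.51 in DM, against 6.69, 7.01, 7.38 and 7.09 in NC. NC replicates 1 and 2 lay within the range of the diabetic arrays. G0s2 was not called: its log2 change was -0.33 ± 0.15 (SE) in DM against NC, with an interval from -0.64 to -0.02, and -0.26 ± 0.15 in AngIV against NC, with an interval from -0.57 to 0.06 (limma adjusted p = 0.439 and 0.368).

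Lipe and Mgll, the genes of the next lipases in the sequence, were not called in any comparison. Lipe read 6.05, 6.94, 6.55 and 6.75 in AngIV and 7.40, 6.93, 6.35 and 6.37 in DM, against 6.12, 5.93, 5.97 and 5.82 in NC. All DM arrays exceeded all NC arrays, while AngIV replicate 1 fell within the NC range. Its log2 change was the largest of the 10 in DM against NC, 0.80 ± 0.22 (SE), with an interval from 0.33 to 1.27 (limma adjusted p = 0.203). In AngIV against NC it was 0.61 ± 0.22, with an interval from 0.14 to 1.08 (limma adjusted p = 0.152). Mgll read 6.87, 6.71, 6.60 and 6.67 in AngIV and 6.97, 6.66, 6.55 and 6.21 in DM, against 6.38, 6.18, 6.62 and 6.56 in NC. The 3 groups of Mgll overlapped, and its interval for AngIV against NC ran from -0.03 to 0.59.

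**Figure D3:**
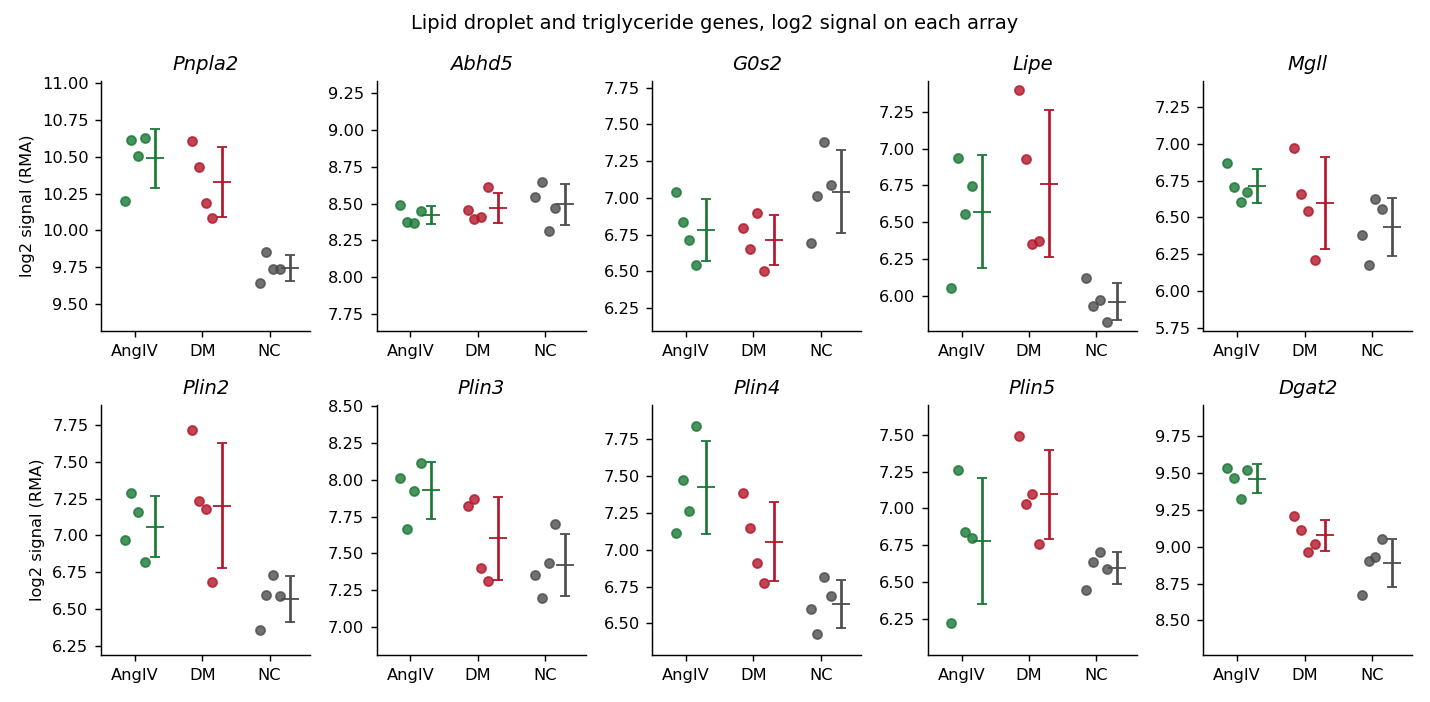
Log2 signal (RMA) of each of the 10 genes on every array, in AngIV, DM and NC, with the group mean and SD (n = 4) beside the points, replicates 1 to 4 from left to right. Each panel spans the same number of log2 units around its own centre. Pnpla2 shows no overlap between the diabetic arrays and NC, and Abhd5 is nearly level.

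Among the coat proteins Plin4 rose in AngIV against NC. Plin4, whose product binds nascent droplets in fat and muscle, read 7.12, 7.48, 7.26 and 7.84 in AngIV and 7.39, 7.15, 6.91 and 6.78 in DM, against 6.60, 6.43, 6.81 and 6.68 in NC. AngIV and NC did not overlap, and DM replicate 4 lay just below the highest NC array. The log2 change was 0.80 ± 0.16 (SE) in AngIV against NC (limma adjusted p = 0.0208) and 0.61 ± 0.14 for both diabetic groups against NC (limma adjusted p = 0.0456). In DM against NC it was 0.43 ± 0.16 (limma adjusted p = 0.354). Leaving out 1 array ended the call in AngIV against NC in 4 of 12 cases (NC replicate 1 or 2, AngIV replicate 2 or 4), with adjusted p-values up to 0.0646, and for both groups together in 9 of 12 cases.

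Plin2 and Plin5 had their highest means in DM. Plin2, a coat protein of most cell types whose level follows the amount of stored lipid, read 6.97, 7.29, 7.16 and 6.82 in AngIV and 7.72, 7.23, 7.18 and 6.68 in DM, against 6.36, 6.59, 6.73 and 6.59 in NC. AngIV lay above NC on every array, and DM replicate 4 fell within the NC range. Neither comparison with NC was called, at a log2 change of 0.49 ± 0.18 (SE) in AngIV (limma adjusted p = 0.152) and 0.63 ± 0.18 in DM (limma adjusted p = 0.208). Plin5, which tethers droplets to mitochondria, read 6.22, 7.26, 6.84 and 6.80 in AngIV and 7.49, 7.03, 7.10 and 6.76 in DM, against 6.45, 6.64, 6.70 and 6.59 in NC. DM and NC did not overlap, while AngIV held both a value below every NC array and one above every NC array. Its log2 change was 0.50 ± 0.19 in DM against NC, with an interval from 0.10 to 0.90, and 0.19 ± 0.19 in AngIV against NC, with an interval from -0.21 to 0.59 (limma adjusted p = 0.345 and 0.647). AngIV against DM gave -0.32, with an interval from -0.72 to 0.08. Plin3, a coat protein that moves between cytosol and droplets, read 8.01, 7.66, 7.92 and 8.11 in AngIV and 7.82, 7.87, 7.40 and 7.31 in DM, against 7.35, 7.20, 7.43 and 7.70 in NC. AngIV replicate 2 stood just below the highest NC array. Plin3 was not called, at 0.51 ± 0.15 in AngIV against NC (limma adjusted p = 0.0842) and 0.18 ± 0.15 in DM against NC (limma adjusted p = 0.717).

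Dgat2, the gene of an enzyme that adds the last fatty acid to make triglyceride, was higher in AngIV than on any other array. It read 9.54, 9.47, 9.32 and 9.52 in AngIV and 9.21, 9.12, 8.97 and 9.02 in DM, against 8.67, 8.90, 8.93 and 9.06 in NC. AngIV overlapped neither DM nor NC, and DM and NC overlapped. The log2 change was 0.57 ± 0.10 (SE) in AngIV against NC (limma adjusted p = 0.0136), a call that held when each array was left out in turn. The call ended with the macrophage covariate and without the 5 arrays with Myl7 above background (limma adjusted p = 0.126 and 0.119). The change was 0.38 ± 0.10 in AngIV against DM, with an interval from 0.16 to 0.61, which was not called (limma adjusted p = 0.372, unadjusted p = 0.00214). DM against NC gave 0.19 ± 0.10, with an interval from -0.03 to 0.41, and both diabetic groups against NC 0.38 ± 0.09 (limma adjusted p = 0.0542).

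**Figure D4:**
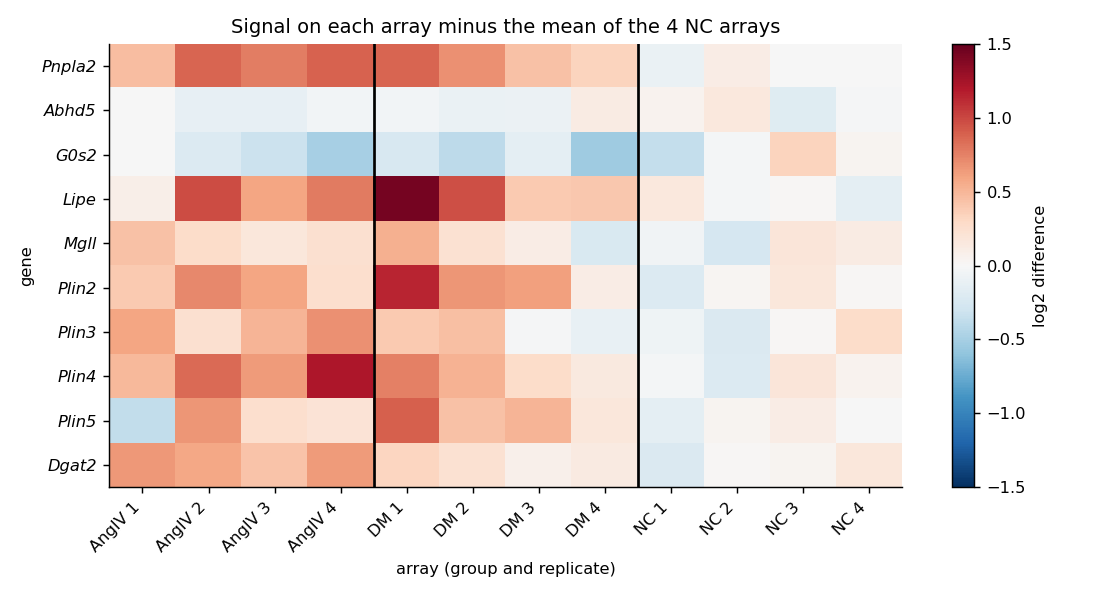
Log2 signal of each gene on each array minus the mean of the 4 NC arrays, as colour (red above, blue below), with arrays of AngIV, DM and NC from left to right. Pnpla2, Lipe, Plin2, Plin4 and Dgat2 are above the NC mean on all 8 diabetic arrays. DM replicate 1 is the most red DM column and DM replicate 4 the least, and Plin5 is below the NC mean on AngIV replicate 1.

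Within groups, arrays differed in several of the genes at once. Among DM arrays, replicate 1 had the highest signal for 7 of the 10 genes and replicate 4 the lowest for 7. Among AngIV arrays, replicate 1 had the lowest signal for Plin4, Plin5, Pnpla2 and Lipe and the highest for Abhd5, G0s2, Mgll and Dgat2. As a description over the 12 arrays, deviations from the group means correlated at r = 0.889 between Pnpla2 and Lipe, 0.834 between Plin5 and Pnpla2, 0.794 between Plin5 and Lipe and 0.749 between Plin4 and Pnpla2. Of the 45 pairs, 32 had an r above 0, with a median of 0.375 and a range from -0.583 (Abhd5 and Mgll) to 0.889. All 9 pairs with Abhd5 were below 0, as were those of G0s2 with Plin4, Pnpla2 and Lipe. Dgat2 and Pnpla2 had 0.375 and G0s2 and Pnpla2 -0.079. The macrophage marker mean was 6.66 on DM replicate 1 and 5.55 on DM replicate 4, the highest and lowest of the DM arrays. The endothelial means (7.45 and 7.06) and fibroblast means (8.09 and 7.60) of these arrays were also the highest and lowest in DM. AngIV replicate 4 had the lowest macrophage mean of its group, 5.64, and the highest Plin3, Plin4 and Pnpla2. A link between marker means and these genes within groups was not tested. Both genes of a pair were read on the same arrays, and so share tissue sample and normalization.

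The genes whose signal was most like that of Pnpla2 over the 12 arrays, among 6329 tested genes above the negative controls, were Tacc2, Cited2, Klhl38, Acadl and Tmtc1, with Pearson r from 0.952 to 0.971. Acadl encodes the long-chain acyl-CoA dehydrogenase of mitochondrial fatty acid oxidation and Cited2 a transcriptional coregulator. Cited2 averaged a log2 signal of 8.73 in AngIV, 8.22 in DM and 7.52 in NC, and its deviations within groups correlated with those of Pnpla2 at 0.968. Of the other 9 genes described here, Plin4 came nearest, at rank 44 (r = 0.899), and Lipe followed at rank 102 (r = 0.864). For Dgat2 the most similar genes were Brd2, Akt1, Phyh, Pde1c and Pacs2, with r from 0.927 to 0.976. Brd2 encodes a bromodomain protein, Akt1 a kinase of insulin signalling, and Phyh the peroxisomal hydroxylase of phytanic acid. Akt1 averaged 8.67 in AngIV, 8.46 in DM and 8.28 in NC. Of the other 9 genes, Plin4 and Plin3 stood at ranks 171 and 180 in likeness to Dgat2.

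Other genes of droplets and triglyceride were counted in 4 lists, 53 genes of which 42 were tested. Limma called 1, which was lower, in AngIV against NC and for both diabetic groups against NC, Fitm1 each time, and 0 in DM against NC and AngIV against DM. Over all genes 2.15% were called in AngIV against NC and 1.32% for both groups, so 1 of 42 is near the share of all genes. The median log2 change of the 42 was 0.0237 in AngIV against NC and -0.0214 in DM against NC. Fitm1, which encodes a triglyceride-binding membrane protein of the endoplasmic reticulum found in muscle, read 7.46, 7.60, 7.44 and 7.44 in AngIV and 7.19, 7.41, 7.75 and 7.77 in DM, against 7.96, 7.95, 8.35 and 7.95 in NC. Every diabetic array lay below every NC array. The log2 change of Fitm1 was -0.57 ± 0.14 (SE) in AngIV against NC (limma adjusted p = 0.0438) and -0.55 ± 0.12 for both groups against NC (limma adjusted p = 0.0378).

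Within the list of other coat and structure genes, 12 were tested. Hsd17b11, a dehydrogenase that sits on droplets, averaged 7.88 ± 0.33 in AngIV and 7.87 ± 0.37 in DM, against 7.18 ± 0.22 in NC (SD, n = 4), and was not called (limma adjusted p = 0.0537 for both groups against NC). Cidea, a protein of droplet fusion, averaged 6.97 ± 0.24 in AngIV and 7.30 ± 0.12 in DM, against 6.73 ± 0.27 in NC, with a log2 change of 0.56 ± 0.14 (SE) in DM against NC (limma adjusted p = 0.169). Fitm2, the relative of Fitm1 with wide expression, had -0.40 ± 0.13 in AngIV against NC (limma adjusted p = 0.121) and -0.06 ± 0.13 in DM against NC.

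At these shares of all genes, counts of 0 in the 3 remaining lists say nothing particular about them. Of 13 tested genes of glycerolipid synthesis 0 were called, and Gpam, which encodes the mitochondrial enzyme of the first acylation of glycerol phosphate, had a log2 change of 0.31 ± 0.12 (SE) in DM against NC (limma adjusted p = 0.362). Agpat3 and Gpd1 had 0.21 ± 0.13 and 0.23 ± 0.12 in the same comparison. Agpat5 read below background in AngIV and DM and is given no fold. Of 7 tested genes of other acylglycerol lipases 0 were called. Lipa, the lysosomal acid lipase gene, had 0.27 ± 0.14 and Ces1d, a carboxylesterase gene, 0.05 ± 0.13 in AngIV against NC, and Dagla, a diglyceride lipase gene, read below background in every group. Of 10 tested genes of lipolysis signalling and transcription 0 were called. Ppargc1a, the coactivator that drives mitochondrial genes, had 0.50 ± 0.13 in AngIV against NC (limma adjusted p = 0.063) and Pparg 0.69 ± 0.19 (limma adjusted p = 0.0658). Prkar1a, a regulatory subunit of protein kinase A, had 0.01 ± 0.10 and Cop1, a ubiquitin ligase gene, 0.12 ± 0.11. The mean of Pparg in NC, 5.57, was near the NC background level of 5.49, and NC replicates 1 and 2 read 5.44 and 5.10.

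**Figure D5:**
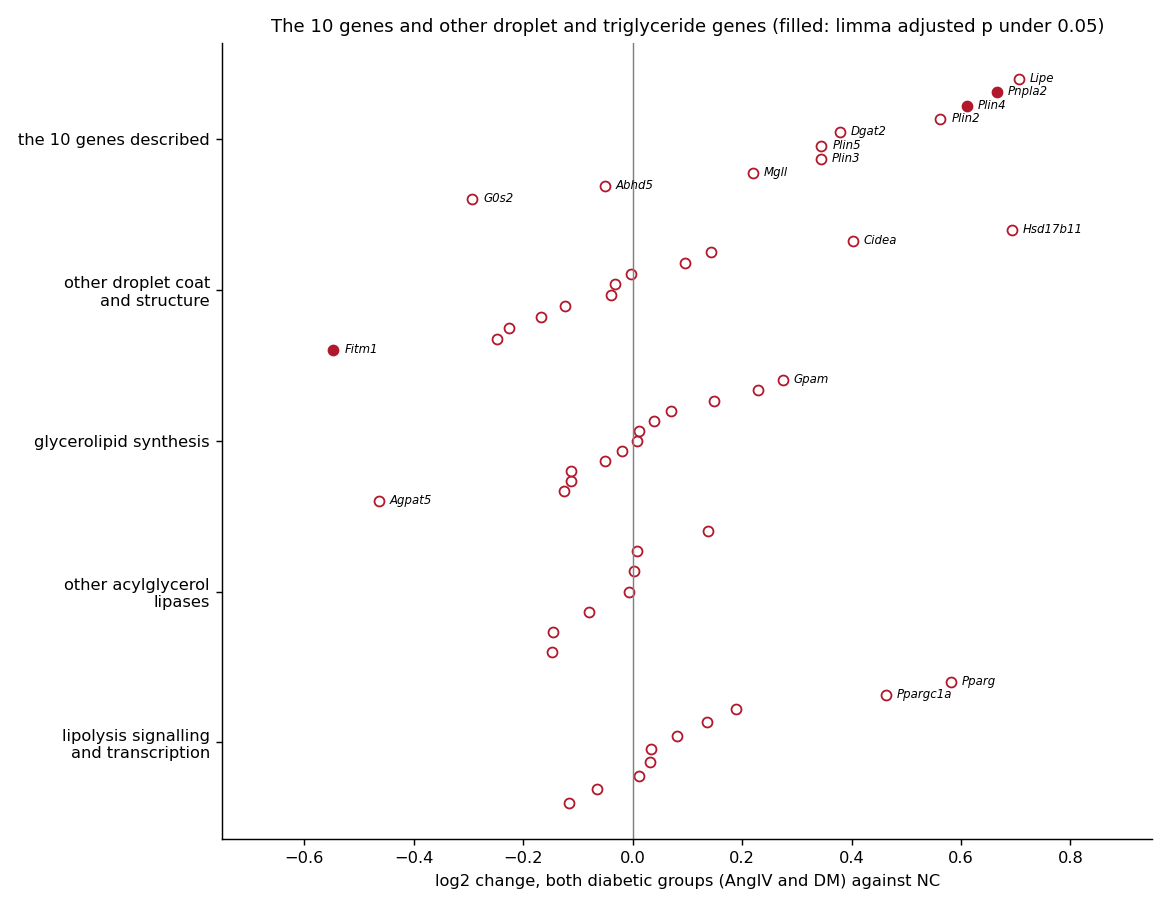
Log2 change for both diabetic groups (AngIV and DM) against NC, 1 point per gene, for the 10 genes described and 4 lists of other droplet and triglyceride genes, with names for the 10 and for genes with an unadjusted p under 0.05. Filled points are called by limma: Pnpla2 and Plin4 above 0 and Fitm1 below 0. Most points of the 4 other lists lie near 0.

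The 3 calls in AngIV against NC were set against the marker levels given above. With the atrial marker mean of each array as a covariate all 3 stayed called, and the log2 changes were 0.79 for Pnpla2, 0.88 for Plin4 and 0.55 for Dgat2. With the adipocyte mean as a covariate they also stayed called, at 0.69, 0.90 and 0.59. In that mean 10 of 12 markers did not exceed the background level in any group, so it measures fat cell content poorly. With the macrophage mean as a covariate 0 of the 10 were called. Calls over all genes were not counted in that fit, so this 0 cannot be set against a share of all genes. With that covariate Pnpla2 had a log2 change of 0.66 (limma adjusted p = 0.132), Plin4 0.76 (limma adjusted p = 0.169) and Dgat2 0.56 (limma adjusted p = 0.126). Without a covariate the changes were 0.75 for Pnpla2, 0.80 for Plin4 and 0.57 for Dgat2. The change of Plin2 in AngIV against NC was 0.14 with that covariate and 0.49 without it, and in DM against NC it was 0.35 and 0.63. Leaving out the 5 arrays on which Myl7 exceeded the background level was an alternative chosen after seeing the data. It leaves 4 AngIV arrays, 1 DM array and 2 NC arrays, and the 3 calls in AngIV against NC did not hold there. Fewer of all genes were called in that fit as well, so the loss says nothing particular about these genes. The log2 changes there were 0.69 for Pnpla2, 0.87 for Plin4 and 0.48 for Dgat2.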

How the data were processed

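Gene expression was measured in myocardium of 12 mice, 4 per group, on 1 Affymetrix array each. Groups came from the sample titles; the disease state tag contradicts them, calling the NC mice diabetic and the AngIV mice negative controls, and was not used. Every comparison rests on the titles, as does the direction of every AngIV against NC change. The values the authors deposited are log2 signals from RMA, 1 per probe set (background correction, quantile normalization and a summary over probes), per the submitters' processing notes; its version and the build are not given in the sources used here. This normalization hides changes in total mRNA, and RMA compresses differences near background.

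Control probe sets (6923 of 29129) were left out, 19572 probe sets with 1 symbol gave 19505 genes (brightest probe set per gene), and the dimmest 30% were dropped, leaving 13653. Limma 3.58.1 in R 4.3.3 (lmFit, eBayes) fitted 1 mean per group over all 12 arrays, two-sided, with Benjamini-Hochberg adjustment over all genes tested; calls mean adjusted p-values under 0.05. Both diabetic groups against NC means the average of the AngIV and DM means minus NC. The fit was tested on simulated data. The number of arrays limits precision: the median standard error of a log2 change was 0.127. The 10 genes, the other lists and the motifs were chosen with earlier results of these data known. Other genes were named where called, where among the 3 smallest p-values or the 2 highest means of their list, or, for likeness, as the 5 highest correlations with the 2 genes of smallest F-test p. Alternatives covered filters, prior, weights, scaling, covariates, a replicate block, an exact permutation test and leaving out each array.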

Additional observations from a re-analysis of the deposited data

How the results depend on the processing

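Of 1030 recomputed log2 changes of the 10 genes, 965 kept their direction and their side of the threshold, 32 lost a call, 16 gained one and 17 changed sign, each of the 17 in a value not called. Among the 10, AngIV against NC had 0 called with the macrophage covariate and 0 without the arrays with Myl7 above background (fewer arrays). Calls over all genes were not counted in the fits with a covariate. The exact permutation test also called 0 of the 10 in each comparison. It called 0 of all genes in each as well, so its 0 says nothing particular about the 10. In AngIV against NC its adjusted p was 0.224 for Pnpla2, Plin4 and Dgat2. For AngIV against NC the number called was 3 or 4 under the other settings on the whole set or on only the arrays compared. Leaving out 1 array gave 2 to 3. For both diabetic groups it was 1 without a filter on dim genes, with array weights, with the adipocyte covariate and with the replicate block; 3 on dropping the dimmest 50%, with median centring or with the atrial covariate; 4 with a trend in the prior; 5 with only genes above the negative controls; 0 with the macrophage covariate and 0 without the Myl7 arrays, and 1 to 5 on leaving out 1 array, where 5 came without DM replicate 4. In DM against NC it was 1 with a trend in the prior (Pnpla2), and 0 in each leave-one-out fit; in AngIV against DM it was 0 under every setting run.

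Over all genes, AngIV against NC had 293 called: 492 on dropping the dimmest 50%, 593 above the negative controls, 616 with a trend, 466 on only the arrays compared, 102 without the Myl7 arrays and 104 to 469 on leaving out 1. DM against NC had 3: 20, 24, 37, 5 and 0 under the same settings and 3 to 30 on leaving out 1. Both groups had 180: 328, 427, 446 and 1 (fit on the compared arrays not run, since it uses all), and 49 to 338; without a filter 123. AngIV against DM had 0, and 0 to 5 on leaving out 1.

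Without the Myl7 arrays DM keeps 1 array and NC 2, so that values and counts with DM there rest on a lone sample assumed to vary like the other groups, and say nothing about stability. Changes of sign were, in AngIV against DM, Lipe 0.064 and G0s2 -0.048 with the atrial covariate, and Lipe 0.22, Abhd5 0.014 and G0s2 -0.11 without the Myl7 arrays; in DM against NC, Abhd5 0.014 and Mgll -0.017 with the macrophage covariate and Plin3 -0.045 and Dgat2 -0.015 without the Myl7 arrays; and Plin5 -0.037 in AngIV against NC with the macrophage covariate. On leaving out 1 array, Abhd5 ran from -0.086 to 0.025 in DM against NC, from -0.11 to 0.0011 for both groups and from -0.072 to 0.0011 in AngIV against DM. In AngIV against DM, Plin2 ran from -0.32 to 0.027, Lipe from -0.33 to 0.023, Mgll from -0.013 to 0.24 and G0s2 from -0.014 to 0.15. The cause was not tested. Of 12 same-numbered pairs of arrays, 2 had deviations that correlated above 0.1, so the numbers were not taken to pair samples; with the replicate block 218 genes were called in AngIV against NC, 138 for both groups and 3 in DM against NC. The group means of the 10 genes all exceeded the negative controls. The lowest was that of Lipe in NC, at 5.96 against a level of 5.49. Whether background compressed the changes was not tested. With 4 arrays against 4 the exact permutation test cannot go below 0.0286.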

Other observations

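Plin4 and Plin5 are neighbours on mouse chromosome 17 with 0 protein-coding genes between them, and Plin3 lies 7 protein-coding genes further on, by the RefSeq gene order of GRCm38. The 9 tested genes between and beside these perilipins (Hdgfl2, Lrg1, Sema6b, Tnfaip8l1, Mydgf, Dpp9, Fem1a, Ticam1 and Arrdc5) were called by limma in 0 cases over the 4 comparisons, and in AngIV against NC their log2 changes ran from -0.23 (Mydgf) to 0.30 (Sema6b), with 1 unadjusted p under 0.05, where Plin4 had 0.80. Over all genes 2.15% were called and 18.6% had an unadjusted p under 0.05 in that comparison, so these counts are near the share of all genes. In DM against NC they ran from -0.15 to 0.13, where Plin5 had 0.50.

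Fabp4, a fatty acid carrier made by capillary endothelium as well as fat cells, was the 1 gene of the adipocyte marker list that was called. Its log2 signals were 11.07, 11.29, 11.28 and 11.19 in AngIV and 11.35, 11.25, 11.14 and 11.23 in DM, against 10.80, 10.89, 10.72 and 10.82 in NC, so every diabetic array lay above every NC array. The log2 change was 0.40 in AngIV against NC (limma adjusted p = 0.0348) and 0.42 for both diabetic groups against NC (limma adjusted p = 0.0205). Adipoq, in the same list and below background in all 3 groups, averaged 3.18 in AngIV, 3.16 in DM and 3.86 in NC.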
